A study of Homo sapiens with 4 samples.

Results

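Protein kinase CK2 is encoded by CSNK2A1 and CSNK2A2, the genes of its catalytic alpha and alpha prime subunits, and by CSNK2B, the gene of its regulatory beta subunit. CSNK2A3 is an intronless copy of CSNK2A1. Every gene and transcript listed under these names was taken, which gave 4 of 47251 genes and 26 of 180500 transcripts. The set was chosen by the values of CSNK2A3, which were 0 in both sh-MFAP2 libraries and above 0 in both controls, so its values are described without a test. The other 3 genes were added because of the enzyme they encode.

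RNA was sequenced from AGS, a human gastric adenocarcinoma cell line, in 4 libraries. Both sh-MFAP2 libraries (n = 2) came from cells infected with lentivirus that carried an shRNA against MFAP2, a microfibril protein, and both control libraries (n = 2) from cells that carried a scrambled shRNA. Infected cells of both groups were selected with puromycin according to the study's methods, and the libraries rest on a single shRNA. Nothing in the labels says that the libraries of a group came from separate cultures, so a p-value measures the spread between these libraries, which may be technical.

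CK2 is a serine/threonine kinase that favours sites surrounded by acidic residues and is active without a second messenger or an activating phosphorylation. Catalytic subunits join a dimer of beta subunits to form the holoenzyme, and the beta subunit steers which substrates are bound. The kinase acts on proteins of ribosome production, chromatin, DNA repair, Wnt and NF-kB signalling, and its catalytic subunits have long been studied in tumours. A retrogene such as CSNK2A3 arises when a processed transcript of the parent is copied back into the genome, so it resembles the parent's spliced transcript and lacks its introns.

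Coordinates are those of GENCODE 29 on GRCh38. CSNK2A1 (ENSG00000101266) lies on the minus strand at chr20:472498-543835, and its transcript ENST00000217244 has 14 exons. CSNK2A3 (ENSG00000254598) lies on the minus strand at chr11:11351942-11353357, is a single exon of 1416 bases, and is tagged as a retrogene. It sits inside an intron of GALNT18, which is transcribed from the same strand. CSNK2A2 (ENSG00000070770) lies at chr16:58157907-58197920 on the minus strand, and CSNK2B (ENSG00000204435) at chr6:31665236-31670343 on the plus strand.

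By its letters alone, a read can be told to come from the copy and not from the parent only where their transcripts differ. How reads that match both were assigned is not given in the sources used here. Of the 1364 bases of CSNK2A3 that aligned to ENST00000217244, 1351 (99.0%) were identical. The coding part of 1173 bases, without the stop codon, held 8 differences, and its first 650 bases held none. Counted from 1 at the A of the start codon, with the base of CSNK2A1 first and that of CSNK2A3 last, the differences were T651A, A707G, G742T, A767G, A954C, A1051G, C1080T and G1159A. Of these, 3 fell on the first codon position, 2 on the second and 3 on the third. CSNK2A2, which has introns of its own, was 75.6% identical to CSNK2A1 over 1033 aligned coding bases, with no identical run longer than 21 bases. Stretches of 30 coding bases around 5 of the differences are shown, because they are places where a read separates the copy from its parent. The letters are those of the transcripts, 5′ to 3′, and capitals mark the bases that differ. In CSNK2A1 the first stretch is at chr20:489838-489867 and the second at chr20:488733-488762, while the third spans an exon junction. In CSNK2A3 they are at chr11:11352455-11352484, chr11:11352351-11352380 and chr11:11352040-11352069, all on the minus strand.
CSNK2A1 coding bases 636 to 665: tttggatatgtggagTttgggttgtatgct
CSNK2A3 coding bases 636 to 665: tttggatatgtggagAttgggttgtatgct
CSNK2A1 coding bases 740 to 769: agGttctggggacagaagatttatatgAct
CSNK2A3 coding bases 740 to 769: agTttctggggacagaagatttatatgGct
CSNK2A1 coding bases 1051 to 1080: AtgatgtcagggatttcttcagtgccaacC
CSNK2A3 coding bases 1051 to 1080: GtgatgtcagggatttcttcagtgccaacT

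The share of CSNK2A3 that is shared with its parent depends on the length read. Of its 30-base windows, 72.7% occurred letter for letter in a CSNK2A1 transcript. The share was 65.3% for windows of 50 bases, 58.6% for 75, 53.9% for 100 and 48.1% for 150. No window of these lengths occurred in the same orientation in a transcript of any other gene. The reverse complement was not searched. In the opposite direction, 710 of the 100-base windows of ENST00000217244 (16.5%) occurred in CSNK2A3. The read length is not given in the sources used here. The bases of CSNK2A3 outside every shared 100-base window lay in 3 places, namely its first 166 bases, the 117 bases from base 889 to base 1005, and its last 225 bases.

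**Figure D1:**
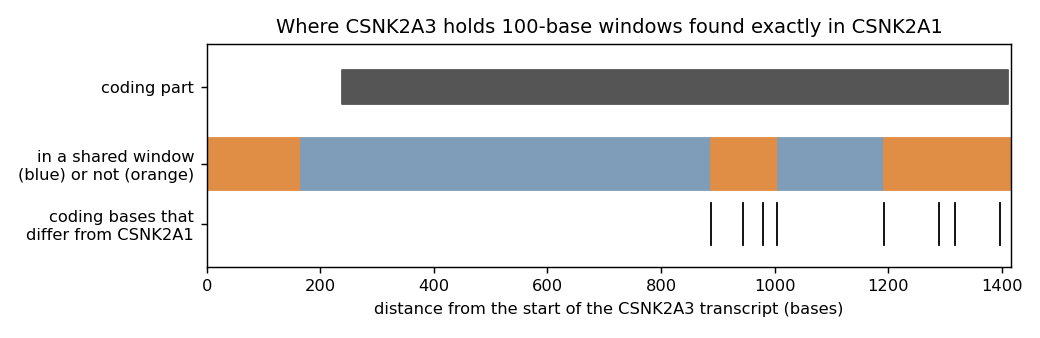
The horizontal axis is the distance in bases from the start of the CSNK2A3 transcript, with the coding part drawn in grey, the bases covered by a 100-base window found exactly in CSNK2A1 in blue, the other bases in orange, and each coding base that differs from CSNK2A1 as a black tick. The 8 ticks all lie in the second part of the transcript, from base 889 on, and the longest shared stretch runs from base 167 to base 888.

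The deposited values were taken as FPKM, fragments per kilobase of transcript scaled to the library's size, from the values themselves, since no unit is named. The depth is not given, and the smallest steps between values correspond to about 54600000 to 74700000 reads per library. The target MFAP2 was at 0 in the sh-MFAP2 libraries and at 0.0116 and 0.0138 FPKM in the controls, so it was at or near 0 in all 4 and gives no check of the labels. The epithelial markers KRT8, KRT18, KRT19 and EPCAM lay between 193 and 803 FPKM, while CDH1, the gene of E-cadherin, lay between 0.584 and 1.25 FPKM. Genes were compared by limma on log2(FPKM + 1) with Benjamini-Hochberg adjustment, and a gene was called at p under 0.01 and adjusted p under 0.05. Of 9873 genes tested, 27 (0.273%) were called, 15 higher and 12 lower in sh-MFAP2, and the median log2 difference over all of them was -0.05.

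The intronless copy CSNK2A3 had 0 FPKM in sh-MFAP2 replicate 1, 0 in replicate 2, 15.7 in control replicate 1 and 15.4 in control replicate 2. Both controls were thus close to each other and both sh-MFAP2 libraries were at 0. The gene has 1 listed transcript, ENST00000528848, which carried the same values. At the depth inferred from the steps, the control values stand for about 1310 and 1630 reads. In RNA of whole cultures, fewer cells with the transcript and less transcript per cell cannot be told apart. Nor was the part of read assignment in the values of CSNK2A3 tested.

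CSNK2A1, the parent and the gene of the alpha subunit, was at 17.1 and 17.7 FPKM in sh-MFAP2, against 19.97 and 22.0 in the controls. Both sh-MFAP2 libraries lay below both controls. Of all genes tested, 31.4% were separated in this direction. The difference was -0.25 on the log2 scale (SE 0.111, 95% interval -0.57 to 0.06) and did not pass limma's test with Benjamini-Hochberg adjustment (adjusted p = 0.441).

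CSNK2A2, the gene of the alpha prime subunit, was at 13.2 and 13.1 FPKM in sh-MFAP2, against 12.4 and 12.9 in the controls. Both sh-MFAP2 libraries lay above both controls, a separation found in 17.5% of all genes tested in that direction. The difference was 0.05 on the log2 scale (SE 0.0991, 95% interval -0.23 to 0.33; limma with Benjamini-Hochberg adjustment, adjusted p = 0.829). Among the 3 tested members it had the smallest standard error.

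CSNK2B, the gene of the regulatory subunit, was at 40.1 and 47.2 FPKM in sh-MFAP2, against 46.8 and 32.9 in the controls. The groups overlapped. The difference was 0.15 on the log2 scale (SE 0.222, 95% interval -0.49 to 0.78; limma with Benjamini-Hochberg adjustment, adjusted p = 0.786), and it rested on control replicate 2: without that library it was -0.10 (adjusted p = 0.954). None of CSNK2A1, CSNK2A2 and CSNK2B was called, and 0 of them had an unadjusted p under 0.05 by limma, against 1214 (12.3%) of all genes tested.

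**Figure D2:**
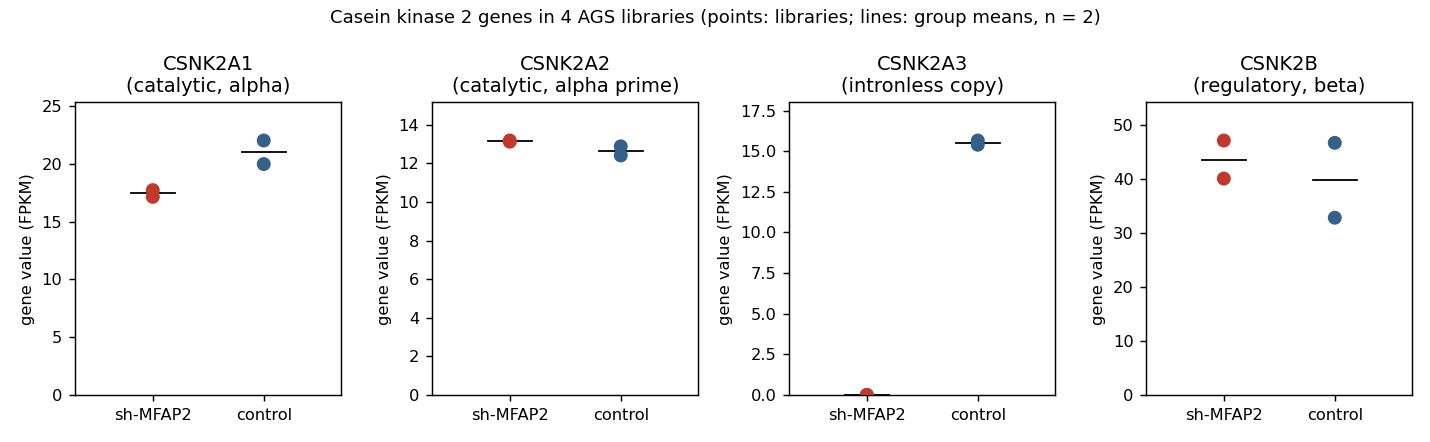
The vertical axis of each panel is the gene value in FPKM, starting at 0, points are libraries (sh-MFAP2 in red, control in blue, n = 2 each) and lines are group means. CSNK2A3 is at 0 in both sh-MFAP2 libraries and at 15.7 and 15.4 in the controls, while CSNK2A1 is lower in both sh-MFAP2 libraries, CSNK2A2 differs little and the CSNK2B groups overlap.

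Whether the values lost from CSNK2A3 came back in CSNK2A1 was examined per library. The FPKM value of a gene was multiplied by its length in kilobases (lengths of 6047 bases for CSNK2A1 and 1416 for CSNK2A3), which gives an amount proportional to the share of fragments assigned to the gene. CSNK2A3 had amounts of 22.2 and 21.8 in the controls and 0 in both sh-MFAP2 libraries. CSNK2A1 had 104 in sh-MFAP2 replicate 1, 107 in sh-MFAP2 replicate 2, 121 in control replicate 1 and 133 in control replicate 2. Had the whole loss been added to the control mean of CSNK2A1, its amount would have been 149, which is 17.3% above that mean. Both sh-MFAP2 libraries were instead below the mean of the controls, by 23.3 in replicate 1 and 19.8 in replicate 2. Expressed as a share of the CSNK2A3 loss, the change of CSNK2A1 was -106% in replicate 1 and -90.0% in replicate 2. In neither sh-MFAP2 library did the parent gene show a net gain. These are net changes only. Reads moved from the copy and a change of the parent's own transcripts cannot be told apart in them.

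The sum of both genes was 104 and 107 in sh-MFAP2 and 143 and 155 in the controls. The groups did not overlap, which follows in part from the choice of CSNK2A3 and held for 31.4% of single genes in this direction. The mean was 105 ± 2.49 (SD, n = 2) in sh-MFAP2 and 149 ± 8.46 (SD, n = 2) in the controls, a difference of -29.2%, which is given without a test because CSNK2A3 was chosen by its values. For CSNK2A1 alone the means were 105 ± 2.49 and 127 ± 8.72 (SD, n = 2), a difference of -17.0%. After the libraries were rescaled by the median of ratios, the amount of CSNK2A1 was 107.5 and 107.6 in sh-MFAP2 and 117 and 129 in the controls, a difference of -12.7%. In the controls the copy made up 15.5% and 14.1% of the pair, and CSNK2A1 had 5.45 and 6.10 units of amount for each unit of CSNK2A3.

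**Figure D3:**
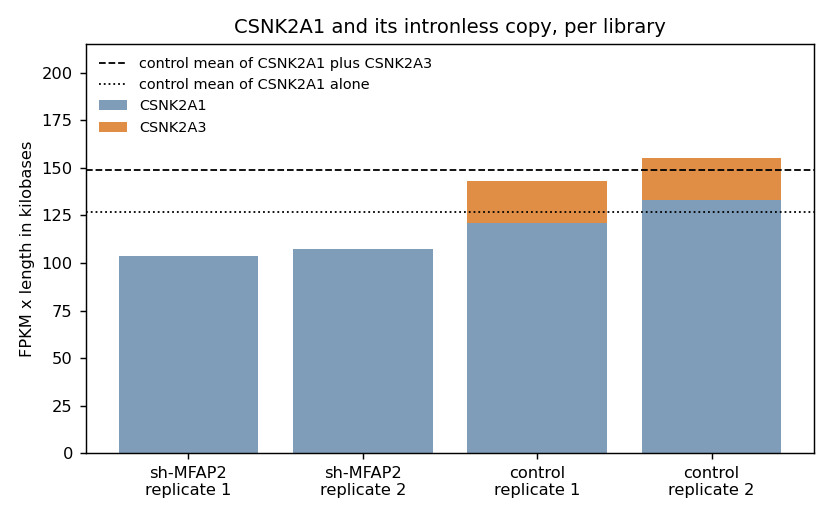
The vertical axis is the amount, FPKM times length in kilobases, starting at 0, with 1 bar per library split into CSNK2A1 (blue) and CSNK2A3 (orange), the control mean of CSNK2A1 alone as a dotted line and that of both genes as a dashed line. The sh-MFAP2 bars reach 104 and 107, under both lines, and hold no CSNK2A3.

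Most of the CSNK2A1 amount lay in 2 coding transcripts, whose shares were similar in the 4 libraries. ENST00000349736 was at 11.9 and 12.4 FPKM in sh-MFAP2, against 13.5 and 14.8 in the controls, which was 47.8% to 49.9% of the gene's amount. ENST00000619188 had 16.6 in both sh-MFAP2 libraries and 19.2 and 20.6 in the controls, or 40.3% to 41.8%. Both were lower in each sh-MFAP2 library than in either control, as were 24.9% of all transcripts tested. ENST00000400217 is a short form with 50.3% of its 100-base windows found in CSNK2A3, the highest share among the 3 transcripts above 1 FPKM on average whose sequence was at hand. ENST00000619188 could not be compared. The short form ENST00000400217 was at 0.771 and 1.52 FPKM in sh-MFAP2, against 1.79 and 2.88 in the controls. Its share of the gene's amount was 1.08% and 2.05% in sh-MFAP2 and 2.15% and 3.14% in the controls. ENST00000217244 had 1.58 and 1.60 in sh-MFAP2 and 1.92 and 2.28 in the controls. The remaining 7 listed transcripts each lay under 1 FPKM in every library. Among them ENST00000460062 had the highest share of windows found in CSNK2A3, 61.1%. It was at 0.128 and 0.229 FPKM in sh-MFAP2, against 0.163 and 0.389 in the controls. ENST00000609525, with 54.2% of its windows found in CSNK2A3, was listed at 0 in all 4.

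CSNK2A2 was carried by 2 transcripts listed as coding, a long one of 5 exons and a short one of 12 exons. In the long form a single exon held 4597 bases. Of its 100-base windows, 92.3% occurred in no other listed CSNK2A2 transcript. The coding part compared with CSNK2A1 above was that of the short form. ENST00000563307, of 4978 bases, was at 13.9 and 14.0 FPKM in sh-MFAP2, against 12.7 and 13.5 in the controls and made up 73.6% to 76.9% of the gene's amount. ENST00000262506, of 1701 bases, had 12.7 and 12.3 in sh-MFAP2 and 13.2 and 12.7 in the controls. The long form was higher in both sh-MFAP2 libraries than in either control, while the short form was lower in both, by a margin smaller than the spread within either group. Of all transcripts tested, 17.8% were separated upwards and 24.9% downwards. Across all 4 genes, 13 transcripts reached a mean of 1 FPKM. Leaving out that of CSNK2A3, 12 were tested and 0 were called by limma with Benjamini-Hochberg adjustment (smallest adjusted p = 0.690), and 0 had an unadjusted p under 0.05. Of all 22312 transcripts tested, 0 (0%) were called and 1704 (7.64%) had an unadjusted p under 0.05.

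CSNK2B differed from the catalytic genes in that its transcript values followed the replicate number in both groups. ENST00000375882, a coding form, had 119.5 FPKM in sh-MFAP2 replicate 1 and 139 in control replicate 1, and was listed at 0 in replicate 2 of both groups. It made up 96.3% and 95.9% of the gene's amount where it was present. In both libraries numbered 2 the value was spread over other transcripts. ENST00000375885 had 0.630 and 31.5 FPKM in replicates 1 and 2 of sh-MFAP2, and 0.505 and 13.0 in those of the control, ENST00000375866 had 0.941, 29.7, 0.893 and 12.2 in the same order, and ENST00000375865 had 0.286, 17.1, 0.431 and 27.7. The retained-intron transcripts ENST00000468255 (0.634, 21.8, 1.29 and 14.7 FPKM in the same order) and ENST00000481269 (1.61, 27.7, 1.75 and 24.3) followed the same pattern. Transcripts with a retained intron made up 2.19% and 2.84% of the CSNK2B amount in the libraries numbered 1, and 44.5% and 47.8% in those numbered 2.

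The coding forms of CSNK2B are hard to separate by sequence. The 4 coding forms share their last 6 exons and differ in the first, and only 17 of the 849 100-base windows of ENST00000375882 occurred in no other listed CSNK2B transcript. The share of such windows was 13.0% for ENST00000375865, 15.8% for ENST00000375866 and 26.7% for ENST00000375885. Among the retained-intron forms it was 48.0% for ENST00000468255, 3.06% for ENST00000481269, 56.5% for ENST00000465481 and 80.7% for ENST00000475875. AL662899.2, which is listed under the name XXbac-BPG32J3.22, overlaps CSNK2B on the same strand at chr6:31666102-31673546. Its transcript ENST00000375880 shares 24.1% of its 100-base windows with CSNK2B and 71.9% with the neighbour LY6G5B. The locus had 0.364 FPKM in sh-MFAP2 replicate 1, 11.6 in sh-MFAP2 replicate 2, 0.204 in control replicate 1 and 19.9 in control replicate 2. It was thus high in the same libraries in which ENST00000375882 was at 0, while LY6G5B itself lay between 0.378 and 0.545 FPKM in all 4. With its amount added to that of CSNK2B, the sums were 119 and 168 in sh-MFAP2 and 138 and 147 in the controls, a difference of 0.666% between the group means. The part of read assignment in these values was not tested.

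**Figure D4:**
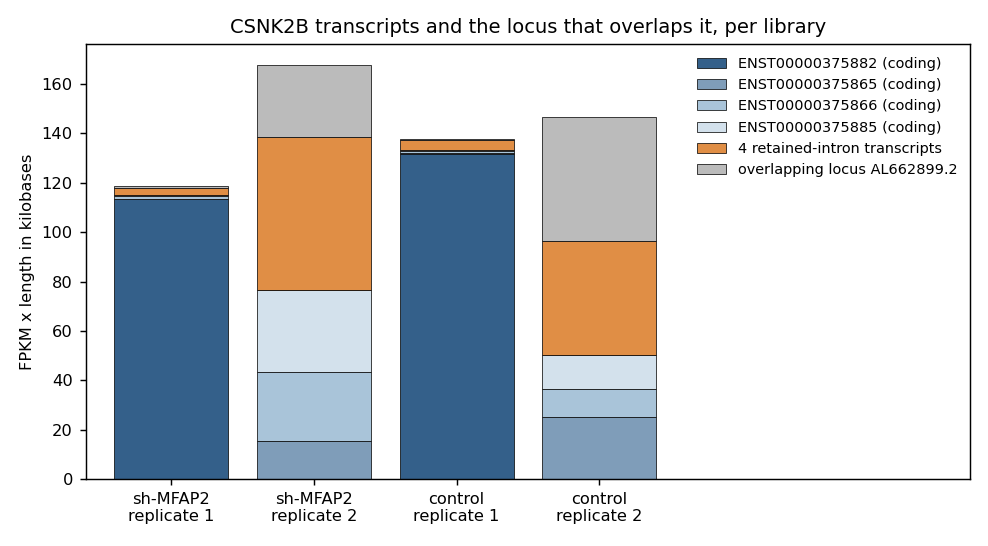
The vertical axis is the amount, FPKM times length in kilobases, starting at 0, stacked for each of 4 libraries by CSNK2B transcript (coding forms in blues, retained-intron forms in orange) with the overlapping locus AL662899.2 in grey. ENST00000375882 fills nearly the whole bar in replicate 1 of both groups and is absent in replicate 2 of both, where the retained-intron forms and the overlapping locus are visible.

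Levels per length were compared between the subunits by adding the FPKM values of the coding transcripts of a gene. CSNK2A1 then was at 32.1 and 33.5 FPKM in sh-MFAP2, against 38.3 and 42.7 in the controls, and CSNK2A2 had 26.6, 26.3, 26.0 and 26.4 in the same order. Of these CSNK2A2 sums, the 5-exon form ENST00000563307 made up 13.9, 14.0, 12.7 and 13.5 FPKM. CSNK2A1 stood above CSNK2A2 in each library, by a ratio of 1.20 and 1.27 in sh-MFAP2 and 1.47 and 1.62 in the controls. By these sums CSNK2A3, with 15.7 and 15.4 FPKM in the controls, was the lowest member in all 4 libraries. By gene value, however, CSNK2A2 was lower than CSNK2A3 in both controls, at 12.4 and 12.9 FPKM. CSNK2B was the highest by the sums, with 121 and 78.3 in sh-MFAP2 and 141 and 52.9 in the controls. Its spread within each group was larger than the difference between the group means. The catalytic genes together, the copy included, were at 58.7 and 59.8 FPKM in sh-MFAP2, against 79.9 and 84.5 in the controls. This difference follows in part from the choice of CSNK2A3 by its values. Their ratio to CSNK2B was 0.484 and 0.764 in sh-MFAP2 and 0.569 and 1.60 in the controls, so the groups overlapped. Without the copy the ratio was 0.484 and 0.764 in sh-MFAP2 and 0.457 and 1.31 in the controls. With or without the copy, the ratio was higher in the library numbered 2 of each group, in which ENST00000375882 was at 0.

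The genes around the copy were read for the same libraries. GALNT18, a GalNAc transferase of mucin-type glycosylation whose intron holds CSNK2A3, was at 7.55 and 4.36 FPKM in sh-MFAP2, against 3.49 and 3.82 in the controls. It was higher in both sh-MFAP2 libraries than in either control, as were 17.5% of all genes tested. The difference was 0.54 on the log2 scale (SE 0.266, limma with Benjamini-Hochberg adjustment, adjusted p = 0.476), and without sh-MFAP2 replicate 1 it was 0.20. The host gene was present in the libraries in which the copy was listed at 0. AC023946.1, an antisense transcript over CSNK2A3, was at 0.602 and 0.194 FPKM in sh-MFAP2, against 0.484 and 0.284 in the controls. Whether the counting used strand is not given in the sources used here. The nearest other listed genes, KC877392.1 and AC104031.1, were at 0.131 FPKM or less in all 4 libraries. GPANK1, which overlaps CSNK2B on the opposite strand, lay between 3.23 and 4.27 FPKM.

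The genes most like CSNK2A3 were found by the Euclidean distance between log2(FPKM + 1) values, each gene centred on its own mean over the 4 libraries. The nearest was EID2 (distance 0.343), the gene of an inhibitor of differentiation, with 0 FPKM in both sh-MFAP2 libraries and 15.8 and 11.5 in the controls. Next came COA3, a cytochrome c oxidase assembly factor, with 0.185 and 0.112 against 29.3 and 25.6. The mitochondrial tRNA gene MT-TP had 20.6 and 9.70 against 193 and 231. The ubiquitin pseudogene UBBP4 had 0.0277 and 4.2e-05 against 7.54 and 9.05, and the mitochondrial tRNA gene MT-TF had 0 and 0.00709 against 34.6 and 38.4. These distances were 0.598 for COA3, 0.783 for MT-TP, 0.875 for UBBP4 and 1.18 for MT-TF. Counted over all genes, 3 were at 0 in both sh-MFAP2 libraries with 10 FPKM or more in each control, CSNK2A3 and EID2 among them. The opposite pattern with the same limit was found for 3. A value of 0 in some library beside 10 FPKM or more in another was found for 44 genes.

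Other copies, taken as intronless from a list, were read beside CSNK2A3. Their exons were not checked. Of 25 copies, 1 was not listed, 11 were at 0 in all 4 libraries, 8 lay under 1 FPKM on average and 5 were tested. All 5 were present in each library, and their amounts differed between the group means by -14.9% to 25.4%. HNRNPA1L2, a copy of the splicing factor gene HNRNPA1, had amounts of 30.9 and 27.7 in sh-MFAP2 and 24.0 and 22.8 in the controls, a difference of 25.4%, beside 21.7% for its parent. PGAM4, a copy of the glycolytic gene PGAM1, had 3.27 and 4.64 against 4.93 and 4.38, a difference of -14.9%, beside -17.5% for the parent. RPL36AL, a copy of the ribosomal protein gene RPL36A, differed by 22.7% beside 16.2%. RBMXL1 differed by -0.18% beside -10.3% for RBMX, the gene of an RNA-binding protein. None of these 5 copies went to 0 in one group, as CSNK2A3 did.

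Of the 29 tested genes among these copies and parents, 0 were called by limma with Benjamini-Hochberg adjustment, 1 had an unadjusted p under 0.05 (12.3% of all genes did), and the median log2 difference was 0.01 (15 above and 14 below 0). The largest differences were those of UBL4A (0.53), CETN2 (0.49) and CSNK1A1 (-0.49). The first rested on control replicate 2, without which it was -0.05, and the second on sh-MFAP2 replicate 2, without which it was -0.01. CSNK1A1, a casein kinase of the Wnt pathway with an intronless copy of its own, was at 15.7 and 17.2 FPKM in sh-MFAP2, against 22.8 and 24.0 in the controls, and its copy CSNK1A1L was listed at 0 in all 4 libraries. In the casein kinase 1 family, which is a separate kinase family despite the name, 6 of 7 genes were tested, 0 were called and the median was -0.03. Unadjusted p-values under 0.05 were found for 3 of them, beside 12.3% of all genes tested. CSNK1A1 and CSNK1G3 (-0.46) were lower and CSNK1G2 (0.50) higher on the log2 scale, with adjusted p of 0.337 or more by limma.

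Partners and substrates of CK2 were followed as a list of 36 genes, of which 35 were tested. By limma with Benjamini-Hochberg adjustment 0 were called, 5 had an unadjusted p under 0.05 beside 12.3% of all genes tested, which is near the share of the list, and the smallest adjusted p was 0.238. On the log2 scale 13 lay above 0 and 22 below, with a median of -0.03 beside -0.05 over all genes tested. CDC34, a ubiquitin-conjugating enzyme of the cell cycle, had the largest difference, with 29.3 and 36.3 FPKM in sh-MFAP2 and 15.7 and 13.7 in the controls (log2 difference 1.10). TOP2A, the topoisomerase of mitotic chromosomes, had 78.4 and 64.9 against 101 and 102 (-0.50). The other 3 genes with an unadjusted p under 0.05, named after their values were seen, were the tumour suppressor PML (0.42) and the chaperones HSP90AA1 (-0.33) and HSP90AB1 (-0.40). HSP90AB1 was at 525 and 560 FPKM in sh-MFAP2, against 709 and 724 in the controls.

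**Figure D5:**
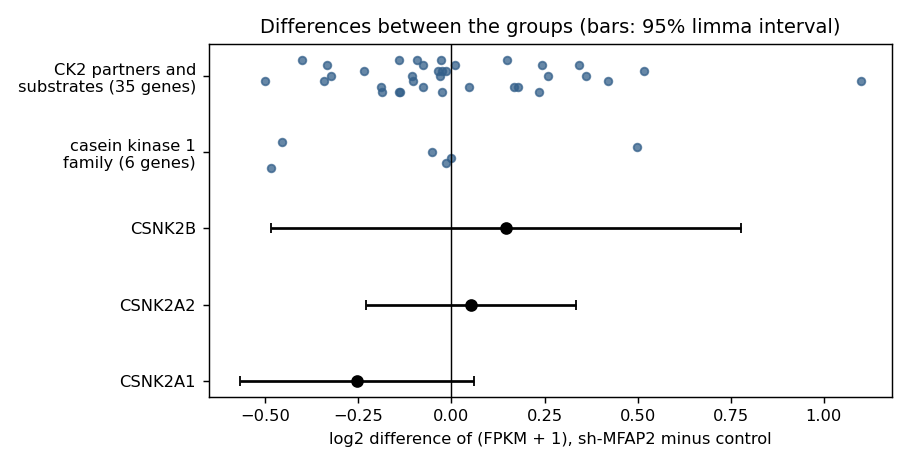
The horizontal axis is the log2 difference of FPKM + 1, sh-MFAP2 minus control, with 95% intervals from limma for 3 CK2 genes and 1 point per tested gene for the casein kinase 1 family and for CK2 partners and substrates. The intervals of CSNK2A1, CSNK2A2 and CSNK2B all hold 0, and the point farthest to the right is CDC34 at 1.10.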

How the data were processed

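For 4 RNA-seq libraries the authors deposited a gene table and a transcript table. The unit is not named, and the deposited values were taken as FPKM because they are not whole, their totals differ between libraries and low values move in steps set by transcript length. The aligner, the estimator, its filters and the annotation are not given in the sources used here. The submitters' processing notes name hg38. Groups came from the labels. The members and lists were chosen with earlier results of these data known.

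Genes or transcripts with a mean of 1 FPKM or more were tested on log2(FPKM + 1) with limma 3.58.1 (lmFit, eBayes with a variance trend) in R 4.3.3, and p-values were adjusted over all features tested. The difference of a low gene is understated on this scale. The code was tested on simulated data. No count test was run, because only 60.3% to 61.6% of low values lay within 0.05 read of a whole step. The step may be a multiple of the true one, so depths are estimates. Each gene value was found to equal its transcripts' values weighted by length, divided by a fixed length of the gene. Genes named were the members, the 5 nearest in pattern to CSNK2A3, overlapping and neighbouring genes, the 3 largest differences of each list and copies that were tested, of which some items are not reported here. Sequences and positions came from GENCODE 29 by transcript identifier, and ENST00000619188 was not found there. Some lengths in the table differ from that release. Python 3.11.15, pandas 2.3.3, numpy 2.4.6, Biopython 1.88 and matplotlib 3.10.9 were used.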

Additional observations from a re-analysis of the deposited data

How the results depend on the processing

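Each of the 3 tested genes was recomputed under 12 alternatives (filters, pseudocount, scaling, replicate block, variance prior, transcript sums and leaving out a library). CSNK2A1 ranged from -0.32 to -0.19 on the log2 scale (adjusted p 0.300 to 0.915) and CSNK2A2 from 0.01 to 0.12 (adjusted p 0.634 to 0.973), and neither changed direction or was called. CSNK2B ranged from -0.10 to 0.39 (adjusted p 0.660 to 0.954) and turned to -0.10 without control replicate 2; the lone library was then assumed to vary like the others. With the replicate block the values were -0.25 for CSNK2A1 (adjusted p = 0.629), 0.05 for CSNK2A2 (0.908) and 0.15 for CSNK2B (0.852), and no member was called. Deviations of same-numbered libraries had a correlation of -0.0572 across genes, which gives no sign of pairing over genes as a whole, although the CSNK2B transcripts and AL662899.2 followed the number. At an unadjusted p under 0.05 alone, 5 CK2 partners and substrates, 3 casein kinase 1 genes and 1 gene of the copies and parents would be counted in place of 0, beside 12.3% of all genes tested. Adding CSNK2A1 and CSNK2A3 without length gave -52.3% in place of -29.2%, since the short copy then weighs as much per FPKM as its long parent. Weighting each transcript by its own length is the same by construction. With 2 libraries a group, no spread within a group can be judged closely.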
